A study of Saccharomyces cerevisiae with 8 samples.

Results

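[SMAUG+] is a heritable, prion-based state of baker's yeast, Saccharomyces cerevisiae, set off by a transient excess of the RNA-binding protein Vts1, and the libraries described here compare cells that carry it with naive cells. The comparison rests on 6 of the 8 libraries of the series, chosen by their titles: 4 [SMAUG+] libraries, made of 2 cultures of inductant 2 and 2 cultures of inductant 1, and 2 libraries of naive cells. Genes were of most interest where both inductions had moved away from naive cells in the same direction. Inductant 2 and inductant 1 were wild-type BY4741 cells in which VTS1 had been overexpressed from a plasmid for 48 h. The plasmid had then been removed and the cells passaged for several generations. Naive cells were wild-type BY4741 cells that had not been through the overexpression. The other 2 libraries came from BY4741 cells with VTS1 deleted; they entered the estimate of the spread, and their values stand beside some results. All cultures had 50 ml and were harvested in mid-exponential phase at an OD600 of about 0.6, and rRNA was depleted from total RNA before sequencing. Each induction has 2 replicates, and the labels do not say whether these came from separate colonies, so the p-values measure the spread between replicates of a group, which may be partly technical, and not between induction events.

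Vts1 is the yeast member of the Smaug family, whose SAM domain binds short RNA hairpins and recruits the CCR4-NOT deadenylase to the bound mRNA, which is then decayed. In yeast growing fast on glucose, protein kinase A keeps the stress activators Msn2 and Msn4 out of the nucleus. When glucose runs short or stress sets in, these factors bind stress response elements (STRE) and switch on genes for reserve carbohydrates, chaperones and antioxidants. Passage through G1 into S phase is driven by 2 related factors: SBF, built on Swi4, binds the SCB element, and MBF, built on Mbp1, binds the MCB element.

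The upstream sequences of 6 genes that changed in both inductions are printed because the motifs in them were found at different frequencies in the genes that fell and in those that rose. They were picked for their matches and are not typical: the 4 with most STRE of the 20 largest falls, and the 2 with most MCB or SCB of the 12 largest rises. Ties were settled by the larger change: HXT7, with 1 STRE, and PCL1, with 1 SCB, were tied with other genes. Of 17 of these falls with a window 9 held an STRE, and of the 12 rises 3 held an MCB or SCB. The sequences are the 300 bases before the start codon, read 5′ to 3′ on the gene's strand from the RefSeq assembly of build R64. Capitals mark the STRE (AGGGG) in the first 4, which are from genes that fell: RGI1, a gene induced in respiratory growth, at chrV:291766-292065 (plus strand); GLC3, the glycogen branching enzyme, at chrV:132820-133119 (plus strand); PGM2, the major phosphoglucomutase, at chrXIII:477607-477906 (minus strand); and HXT7, a high-affinity hexose transporter, at chrIV:1155929-1156228 (minus strand). Capitals mark the MCB (ACGCGT) in the replication factor gene CDC45 at chrXII:345942-346241 (minus strand), and the SCB (CGCGAAA) in the G1 cyclin gene PCL1 at chrXIV:87597-87896 (plus strand). Both strands were searched, so that CCCCT and TTTCGCG are the same motifs read from the other strand.
RGI1: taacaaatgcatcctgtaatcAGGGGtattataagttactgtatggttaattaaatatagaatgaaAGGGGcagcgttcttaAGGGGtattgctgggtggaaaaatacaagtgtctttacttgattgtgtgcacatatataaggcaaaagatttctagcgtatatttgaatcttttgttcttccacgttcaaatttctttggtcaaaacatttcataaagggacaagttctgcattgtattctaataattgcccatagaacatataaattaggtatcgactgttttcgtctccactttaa
GLC3: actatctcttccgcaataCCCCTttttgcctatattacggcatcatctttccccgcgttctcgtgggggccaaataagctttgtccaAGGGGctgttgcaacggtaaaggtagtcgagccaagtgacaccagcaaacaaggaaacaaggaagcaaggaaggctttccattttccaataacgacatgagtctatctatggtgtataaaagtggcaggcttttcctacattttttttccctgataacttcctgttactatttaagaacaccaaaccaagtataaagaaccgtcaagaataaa
PGM2: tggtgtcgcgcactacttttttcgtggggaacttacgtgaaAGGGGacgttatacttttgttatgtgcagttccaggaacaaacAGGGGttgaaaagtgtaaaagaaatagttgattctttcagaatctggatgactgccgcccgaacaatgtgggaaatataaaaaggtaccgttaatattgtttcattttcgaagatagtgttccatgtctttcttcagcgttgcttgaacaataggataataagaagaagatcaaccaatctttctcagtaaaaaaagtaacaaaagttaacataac
HXT7: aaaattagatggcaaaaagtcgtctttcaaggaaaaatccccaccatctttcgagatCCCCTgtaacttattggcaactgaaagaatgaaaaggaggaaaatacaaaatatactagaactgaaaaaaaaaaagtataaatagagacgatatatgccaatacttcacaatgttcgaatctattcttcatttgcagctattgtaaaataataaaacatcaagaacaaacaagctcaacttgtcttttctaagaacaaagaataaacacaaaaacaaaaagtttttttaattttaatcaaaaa
CDC45: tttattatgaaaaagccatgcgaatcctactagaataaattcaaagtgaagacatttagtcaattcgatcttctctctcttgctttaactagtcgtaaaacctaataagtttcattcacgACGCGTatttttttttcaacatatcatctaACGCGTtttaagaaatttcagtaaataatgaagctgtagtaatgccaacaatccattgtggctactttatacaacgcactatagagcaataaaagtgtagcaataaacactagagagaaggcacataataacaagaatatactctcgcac
PCL1: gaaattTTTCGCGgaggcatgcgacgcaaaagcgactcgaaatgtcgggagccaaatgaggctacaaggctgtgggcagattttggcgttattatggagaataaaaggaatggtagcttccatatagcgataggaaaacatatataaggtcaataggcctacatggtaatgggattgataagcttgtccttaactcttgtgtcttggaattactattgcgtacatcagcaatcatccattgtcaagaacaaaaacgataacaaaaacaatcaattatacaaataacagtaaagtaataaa
Of the 109 genes that fell in both inductions, 103 had an annotated start, and 53.4% of these held at least 1 STRE in the window, against 22.4% of the 5725 windows of all genes tested. At least 2 STRE were present in 17.5% of the windows of genes that fell, against 3.41% of all windows. Among the 49 genes that rose in both inductions, 8.16% held an STRE. An MCB or SCB was present in 24.5% of the windows of genes that rose, in 2.91% of those of genes that fell and in 7.27% of all windows. RGI1 had 3 STRE, which begin 279, 234 and 218 bases before its start codon; CDC45 had 2 MCB, at 180 and 150 bases. A match is a description of the letters and does not show that a factor was bound.

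The libraries held 18431474 to 27501966 estimated counts, and 6230 of 6713 reading frames had enough counts to be tested. Values are CPM, counts scaled to library size with TMM factors, unless TPM, a level per length, is named. Changes are log2 fold changes with their standard error (SE) from edgeR's quasi-likelihood test, and calls rest on a Benjamini-Hochberg adjusted p under 0.05 over all genes tested. VTS1 itself had 36.3 and 29.5 CPM in inductant 2, 24.7 and 25.0 CPM in inductant 1 and 22.5 and 19.9 CPM in naive cells, against 2 counts in all in the deletion libraries. The inductant libraries were thus all above the naive ones, but the change was not called (log2 fold change 0.44 ± 0.13 SE, adjusted p = 0.0685). The MATa genes STE2, STE6, BAR1 and ASG7 were expressed at 4.19 to 337 CPM in the inductants; LEU2, MET17 and URA3, which BY4741 lacks, were listed at 0 in all 6 libraries, and so were the 2 very short MATa pheromone frames MFA1 and MFA2. The 4 MATα genes summed to 28.8 to 29.9 CPM in inductants, against 25.2 to 25.8 CPM in naive cells, and the 6 MATa genes to 615 to 721 CPM, against 588 to 616 CPM. The cultures of a group differed more than counting noise, most in the naive pair (chi-square per degree of freedom 55.4, against 12.3 in inductant 2 and 20.5 in inductant 1). The deletion pair differed least, at 5.45. It entered the same estimate of the spread per gene, so the p-values against naive cells rest in part on the quietest pair.

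With both inductions weighted equally, 534 genes (8.57% of those tested) differed between inductants and naive cells: 185 (2.97%) were higher and 349 (5.6%) lower. Inductant 2 alone differed from naive cells at 563 genes (9.04%) and inductant 1 alone at 274 (4.4%). Called in the equal-weight contrast and in each induction on its own, in the same direction, were 49 rises (0.787%) and 109 falls (1.75%). Both inductions were set against the same naive libraries, so this count is a rule for selecting genes and not a test of agreement. For each of the 158 genes the 4 inductant libraries lay outside the range of the naive ones; over all genes tested, all 4 lay above both naive libraries for 14.9% and below both for 14.9%. The falls were deeper than the rises were high: their median log2 fold change was -0.83, and 57 of 109 passed 1.5-fold in each induction, whereas the rises had a median of 0.45 and 8 of 49 passed it. The median over all genes tested was -0.01. The count of 158 rests on few libraries: it was 21 without the first library of inductant 1, 46 without the second, 101 without the first library of inductant 2, 91 and 85 without the first and the second deletion library and 604 without the second naive library. Called in each induction in all 8 fits with 1 library left out were YOX1 among the rises and CWP1, HXT7, EGO4, GPH1, TPS2, PNS1, USV1, HAP4, SLT2, ALD6 and CCW22 among the falls. Each of the other genes lost that status in at least 1 of the 8 fits, 35 of them in 7 and 2 in all 8; of the 158, 14 kept it without the first library of inductant 1, 41 without the second and 82 to 139 without any other library. The 534 equal-weight calls became 277 and 336 without the first and the second library of inductant 1, 315 without the first library of inductant 2, 339 and 341 without either deletion library and 1221 without the second naive library. Inductant 2 alone had 161 and 345 calls without its first and its second library and 1023 without the second naive library, and inductant 1 alone had 24 and 48 without its first and its second library, 115 and 107 without either deletion library and 1048 without the second naive library. The equal-weight call alone held in all 8 fits for 104 of the falls and 32 of the rises.

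**Figure D1:**
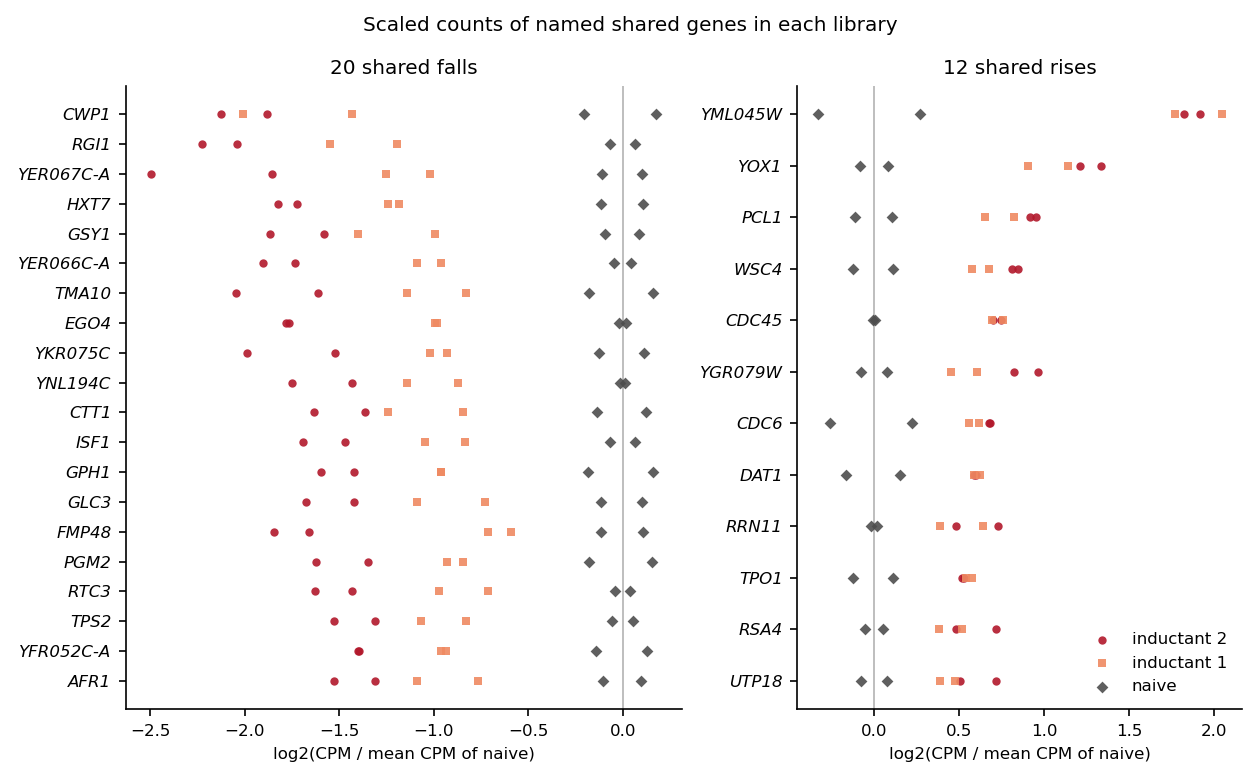
Scaled counts of the 20 falls and 12 rises with the largest change among the genes called in both inductions, each library on a log2 scale relative to the mean of the naive libraries (circles inductant 2, squares inductant 1, diamonds naive). Every inductant library lies on one side of both naive libraries, and in 19 of the 20 falls both inductant 2 libraries lie below both inductant 1 libraries, CWP1 being the exception.

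Genes of hexose uptake and phosphorylation were among the falls. HXT7 had 267 and 287 CPM in inductant 2, 400 and 416 CPM in inductant 1 and 874 and 1019 CPM in naive cells. HXT2, another high-affinity transporter, had 712 and 656 CPM in inductant 2, 764 and 894 CPM in inductant 1 and 1432 and 1258 CPM in naive cells. HXT4 had 261 and 280 CPM in inductant 2, 363 and 368 CPM in inductant 1 and 500 and 607 CPM in naive cells. For these 3 transporters every inductant library was below every naive one, with log2 fold changes of -1.49 ± 0.07 for HXT7 (adjusted p = 1.16e-06), -0.84 ± 0.08 for HXT2 (adjusted p = 0.000134) and -0.81 ± 0.08 for HXT4 (adjusted p = 0.000186). HXT6 is nearly identical to HXT7 and shares reads with it; its fitted change was -1.52 ± 0.32 (adjusted p = 0.0677). Summed over HXT6 and HXT7, inductant 2 had 342 and 371 CPM, inductant 1 had 490 and 539 CPM, and naive cells had 1140 and 1280 CPM. The low-affinity transporters HXT1 and HXT3 had log2 fold changes of -0.15 and 0.05 and were not called. Over all genes tested, 5.6% were called lower in the equal-weight contrast and 1.75% in each induction as well. Of 15 hexose transporters tested, the 3 that fell were called in both inductions, and 1 of them was without the first library of inductant 1.

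Among 26 genes of glucose sensing and repression, 7 were called lower in the equal-weight contrast, with 5.6% of all genes as the background. Of these 7, only the hexokinase gene HXK1 was called in each induction. The count of 7 was 3 without either library of inductant 1, and 4 without the first library of inductant 2 or either deletion library. HXK1 had 293 and 346 CPM in inductant 2, 476 and 475 CPM in inductant 1 and 654 and 828 CPM in naive cells (log2 fold change -0.93 ± 0.1, adjusted p = 0.000586). MTH1, a co-repressor of hexose transporter genes, and MIG1, the main glucose repressor, had log2 fold changes of -0.82 and -0.37 in the equal-weight contrast (adjusted p = 0.00503 and 0.00773). In inductant 1 alone neither passed the threshold (adjusted p = 0.111 for MTH1 and 0.0985 for MIG1).

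Reserve carbohydrate genes gave the highest share of falls of any list with 3 or more called members. Of 17 glycogen genes, 11 fell in the equal-weight contrast, with 5.6% of all genes called lower as the background, and 9 fell in each induction. The 9 genes are PGM2, which makes glucose 1-phosphate, GLG1, which primes the chain, the synthases GSY1 and GSY2, the branching enzyme GLC3, the phosphorylase GPH1, which breaks glycogen down, and 3 regulatory subunits that direct the phosphatase Glc7, GAC1, PIG2 and GIP2. Genes of synthesis and of breakdown are both among them. GSY1 had 164 and 200.0 CPM in inductant 2, 227 and 301 CPM in inductant 1 and 562 and 635 CPM in naive cells, 2.73-fold lower in inductants. GPH1 had 164 and 185 CPM in inductant 2, 254 CPM in both libraries of inductant 1 and 437 and 554 CPM in naive cells, 2.36-fold lower. GLC3 had 204 and 243 CPM in inductant 2, 306 and 393 CPM in inductant 1 and 602 and 700.0 CPM in naive cells, 2.33-fold lower. No inductant library reached the lower naive value for any of these, and the adjusted p-values were 0.000564 for GSY1, 5.62e-05 for GPH1 and 0.000979 for GLC3.

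The second synthase was also lower: GSY2 had 190.0 and 230.0 CPM in inductant 2, 289 and 318 CPM in inductant 1 and 490.0 and 594 CPM in naive cells. Per length, GSY1 and GSY2 were at similar levels in each group, 86.8 and 101 TPM in inductant 2, 132 and 152 TPM in inductant 1 and 278 and 253 TPM in naive cells. PGM2 had 153 and 185 CPM in inductant 2, 247 and 262 CPM in inductant 1 and 417 and 525 CPM in naive cells. GAC1 had 31.7 and 33.7 CPM in inductant 2, 49.9 and 48.8 CPM in inductant 1 and 84.7 and 93.3 CPM in naive cells. The order inductant 2, inductant 1, naive held from low to high in each of these genes. The paralogs PGM1 and GLG2, with log2 fold changes of -0.00 and -0.13, were not called, nor was UGP1, which makes UDP-glucose (-0.21). No glycogen gene was called higher by edgeR or DESeq2, and none was higher at an unadjusted p under 0.05. Without 1 library, 10 to 12 were called lower in the equal-weight contrast; the count called in each induction as well was 2 without the first library of inductant 1 and at most 8 without any other.

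Trehalose, the other reserve sugar, was represented by TPS2, the trehalose phosphatase. TPS2 had 326 and 378 CPM in inductant 2, 448 and 529 CPM in inductant 1 and 902 and 975 CPM in naive cells, 2.26-fold lower in inductants (adjusted p = 5.62e-05). Its partners in the synthase complex, TSL1 and TPS1, were called lower in the equal-weight contrast (-0.69 and -0.38, adjusted p = 0.0219 and 0.0204) but not in inductant 1. Both calls were lost without the first library of inductant 1 and without the second naive library, and that of TSL1 also without the second library of inductant 1. The other 4 of 7 trehalose genes were not called. The background was 5.6% of all genes called lower and 1.75% called lower in each induction as well.

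**Figure D2:**
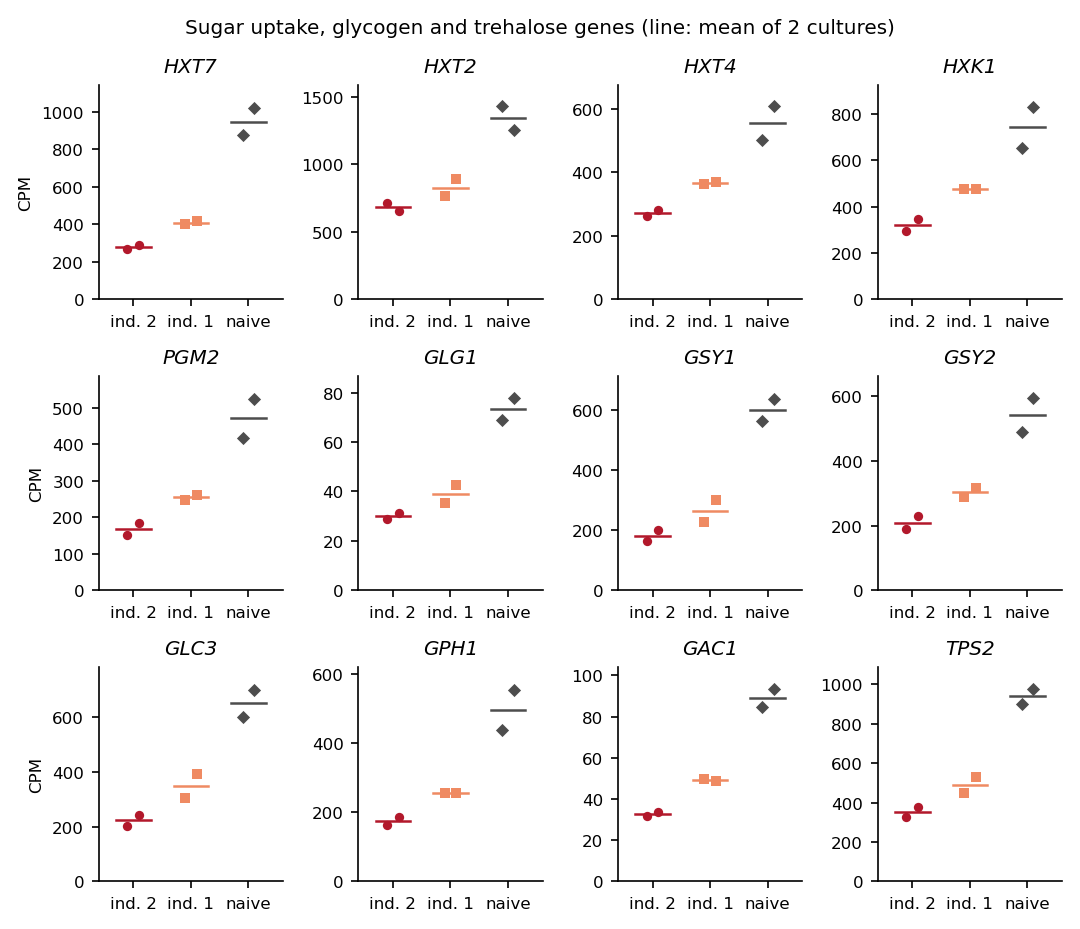
CPM of 12 genes of sugar uptake, glycogen and trehalose, 1 point per library and a line at the mean of 2 cultures, for inductant 2, inductant 1 and naive cells; axes start at 0. In each panel both inductions lie below naive cells and inductant 2 lies below inductant 1, as for HXT7 with 267 and 287 CPM, 400 and 416 CPM and 874 and 1019 CPM.

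Several stress regulators were lower, with 5.6% of all genes called lower as the background. Of 20 regulators of stress and quiescence, 5 were called lower and 3 of these in each induction (1 without the first library of inductant 1): USV1, a zinc finger activator of nutrient-limited growth, XBP1, a stress-induced repressor, and GIS1, which acts in the entry into quiescence downstream of the kinase Rim15. USV1 had 15.0 and 15.8 CPM in inductant 2, 19.0 and 21.0 CPM in inductant 1 and 35.8 and 39.7 CPM in naive cells (log2 fold change -1.10 ± 0.09, adjusted p = 8.27e-05). MSN4 had 60.9 and 64.1 CPM in inductant 2, 84.9 and 86.7 CPM in inductant 1 and 97.7 and 114 CPM in naive cells (-0.53 ± 0.07, adjusted p = 0.000887), and in inductant 1 alone it missed the threshold (adjusted p = 0.0587). MSN2, its constitutive paralog, lay at 64.2 to 68.2 CPM in inductants, against 63.9 and 69.2 CPM in naive cells, and RIM15 had a log2 fold change of 0.01; neither was called.

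Of 26 small heat shock and membrane stress proteins, 14 were called lower, 6 of them in each induction, with 5.6% and 1.75% of all genes as the background. These 6 are YNL194C, a membrane protein of the SUR7 family, NCE102, an eisosome protein, HSP30, a negative regulator of the plasma membrane proton pump, TMA10, which associates with ribosomes, PHM7 and MSC1. TMA10 had 14.5 and 19.6 CPM in inductant 2, 27.2 and 33.7 CPM in inductant 1 and 52.9 and 67.0 CPM in naive cells, 2.63-fold lower. HSP30 had 82.4 and 88.5 CPM in inductant 2, 116 and 124 CPM in inductant 1 and 176 and 151 CPM in naive cells, 1.62-fold lower. The groups did not overlap in either gene. Of 22 chaperones of the larger families edgeR and DESeq2 each called 1 lower and 1 higher in inductant 2 alone. In inductant 1 alone edgeR called 1 higher and DESeq2 2, and neither called one lower. In the equal-weight contrast neither called a chaperone lower, while edgeR called 1 higher and DESeq2 2. At an unadjusted p under 0.05, 4 chaperones were higher and 3 lower there. Of all genes tested, edgeR called 2.97% higher. HSP26, HSP12 and HSP31 had log2 fold changes of 0.31, -0.16 and 0.18 in the equal-weight contrast and were not called. Without 1 library 11 to 13 members of the list were called lower, and without the second naive library 3 were called higher. The 6 called in each induction became 0 without the first library of inductant 1 and 1 without the second.

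Of 26 antioxidant genes 4 fell, each in both inductions: CTT1, the cytosolic catalase, GPX1, a glutathione peroxidase, TSA2, a peroxiredoxin, and GRX2, a glutaredoxin. The background was 5.6% of all genes called lower and 1.75% called lower in each induction as well. All 4 stayed called in the equal-weight contrast in every fit with 1 library left out, but the count called in each induction as well was 0 without the first library of inductant 1, 1 without the second and 2 without either deletion library. CTT1 had 20.6 and 24.8 CPM in inductant 2, 27.0 and 35.6 CPM in inductant 1 and 58.1 and 69.6 CPM in naive cells, 2.39-fold lower (adjusted p = 0.000603). Other members of these families were not called in the equal-weight contrast, with log2 fold changes of -0.02 for TSA1, -0.21 for SOD1 and -0.02 for AHP1. The aldehyde dehydrogenase genes ALD6, ALD4 and ALD3 fell in both inductions, 3 of the 7 genes listed under acetaldehyde and acetate use. That count was lower without either library of inductant 1. ALD6 had 196 and 167 CPM in inductant 2, 143 CPM in both libraries of inductant 1 and 348 and 270.0 CPM in naive cells. Here inductant 1 lay further from naive cells than inductant 2, although the difference between them was not called (log2 fold change 0.34 ± 0.12, adjusted p = 0.202).

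HAP4, the regulatory subunit of the activator of respiratory genes, had 177 and 199 CPM in inductant 2, 245 and 294 CPM in inductant 1 and 447 and 491 CPM in naive cells, 2.08-fold lower (adjusted p = 5.62e-05). RGI1 had 39.2 and 44.6 CPM in inductant 2, 62.8 and 80.1 CPM in inductant 1 and 175 and 192 CPM in naive cells, 3.35-fold lower (adjusted p = 0.000367). The groups did not overlap in either gene. The nuclear genes of oxidative phosphorylation, many of which are activated by the complex that Hap4 joins, had 3 of 39 called lower, with 5.6% of all genes as the background (1 without either library of inductant 1, and 2 lower and 5 higher without the second naive library). Of these, 1, the internal NADH dehydrogenase NDI1, was called in both inductions (lost in 4 of the 8 fits with 1 library left out), and the list's median log2 fold change was -0.01. YER067C-A and YER066C-A, 2 reading frames without a match in the annotation whose systematic names place them beside RGI1 (YER067W), had log2 fold changes of -1.63 and -1.42. Since it is not given whether strand was used, reads of overlapping frames cannot be told apart, and these 3 are not counted on as separate signals.

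Cell wall genes moved in both directions. CWP1, a cell wall mannoprotein, had the deepest fall of the 109: 6.27 and 5.31 CPM in inductant 2, 5.75 and 8.57 CPM in inductant 1 and 20.1 and 26.2 CPM in naive cells, 3.58-fold lower (adjusted p = 0.000143). SLT2, the MAP kinase of the cell wall integrity pathway, had 80.1 and 84.9 CPM in inductant 2, 86.6 and 114 CPM in inductant 1 and 171 and 197 CPM in naive cells, 2.02-fold lower (adjusted p = 0.000409). RLM1, the transcription factor that Slt2 activates, had a log2 fold change of -0.65 ± 0.08 (adjusted p = 0.000609). WSC4, which belongs to the family of wall sensors, had 46.5 and 47.5 CPM in inductant 2, 42.3 and 39.4 CPM in inductant 1 and 24.3 and 28.6 CPM in naive cells, and rose 1.65-fold (adjusted p = 0.000586). UTR2, a chitin transglycosylase, rose 1.44-fold, with 417 and 422 CPM in inductant 2, 409 and 450.0 CPM in inductant 1 and 267 and 324 CPM in naive cells. In the equal-weight contrast 5.6% of all genes were lower and 2.97% higher. Over the lists, 6 of 27 integrity signalling genes were lower and 1 higher, and 5 of 29 mannoproteins and glucan enzymes were lower and 1 higher. The 5 became 8 without the second naive library and 2 or 3 without any other single library; of the wall genes above, CWP1, SLT2, RLM1, WSC4 and UTR2 kept their equal-weight calls in each of these fits. The abundant wall protein genes CCW12 and CIS3 had log2 fold changes of -0.15 and -0.22 and were not called.

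**Figure D3:**
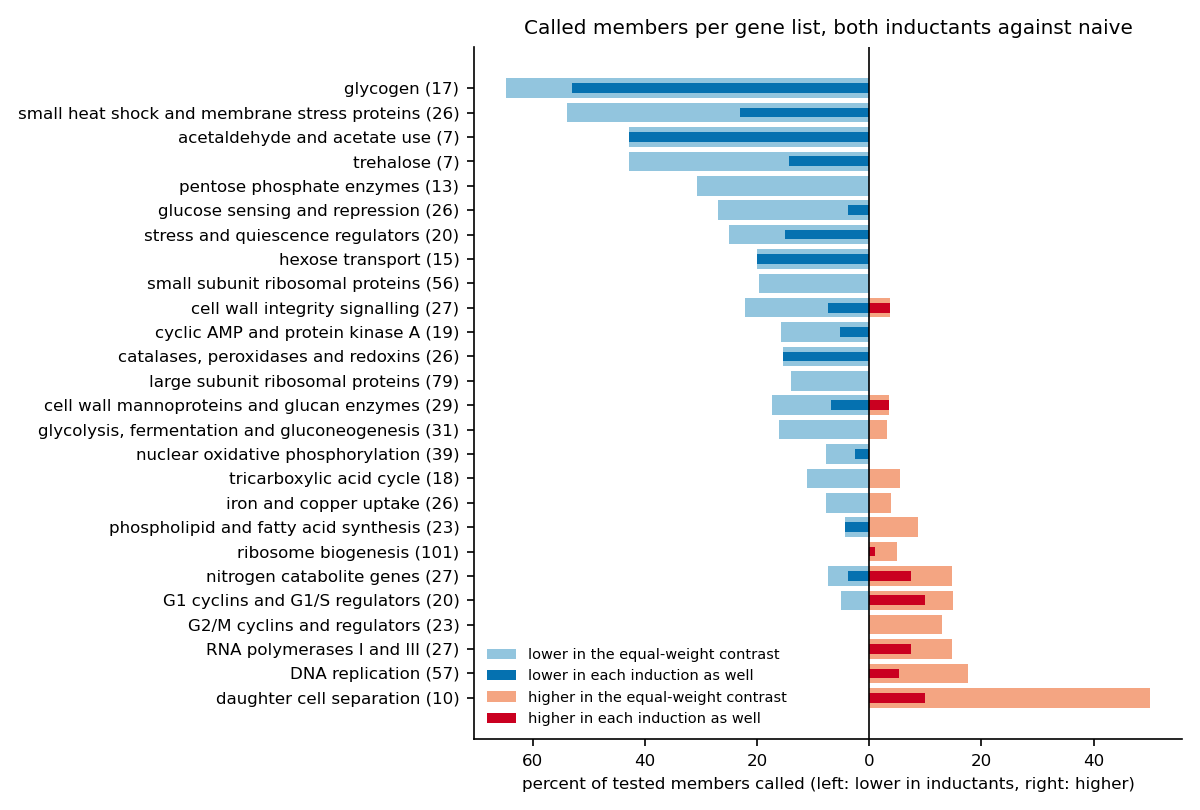
Percent of tested members called lower (left) or higher (right) in inductants against naive cells, for the lists with 3 or more called members, list size in brackets; pale bars give the equal-weight contrast and dark bars the members called in each induction as well. Glycogen genes stand at the lower end with 11 of 17 called, and daughter cell separation at the higher end with 5 of 10. Over all genes tested, 5.6% were called lower and 2.97% higher in the equal-weight contrast, and 1.75% and 0.787% in each induction as well.

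The genes that rose in both inductions included G1/S and replication genes. Of 20 G1 cyclins and G1/S regulators, 3 were called higher and 1 lower in the equal-weight contrast. The background was 2.97% of all genes called higher and 5.6% lower. In each induction as well 2 were called higher, against 0.787% of all genes, and 0 lower. In inductant 2 alone 4 were higher and 2 lower. YOX1, a repressor of genes of the M/G1 window and itself a target of the G1/S factors, had 22.5 and 20.7 CPM in inductant 2, 19.7 and 16.7 CPM in inductant 1 and 9.43 and 8.42 CPM in naive cells, 2.22-fold higher (adjusted p = 0.000176). PCL1, a G1 cyclin of the kinase Pho85, had 32.4 and 31.6 CPM in inductant 2, 29.6 and 26.3 CPM in inductant 1 and 18 and 15.5 CPM in naive cells, 1.79-fold higher (adjusted p = 0.000586). CDC45, which joins the MCM helicase at origins, had 33.9 and 32.8 CPM in inductant 2, 34.2 and 32.7 CPM in inductant 1 and 20.1 and 20.3 CPM in naive cells, 1.65-fold higher (adjusted p = 0.0006). In these 3 genes the lowest inductant library stood well above the higher naive one. CDC6, which loads the MCM helicase, had 37.7 and 37.9 CPM in inductant 2, 36.2 and 34.8 CPM in inductant 1 and 19.7 and 27.5 CPM in naive cells (log2 fold change 0.63 ± 0.12, adjusted p = 0.00838), with a wide gap within the naive pair. Its call in each induction as well was lost in 7 of the 8 fits with 1 library left out.

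Among 57 DNA replication genes 10 were higher in the equal-weight contrast, against 2.97% of all genes, and 3 rose in each induction: CDC45, CDC6 and TOF1, a fork protection factor that was named after its values were seen. RNR1, the large subunit of ribonucleotide reductase, had 834 and 769 CPM in inductant 2, 686 and 693 CPM in inductant 1 and 523 and 598 CPM in naive cells (0.41 ± 0.07, adjusted p = 0.00416), and missed the threshold in inductant 1 alone (adjusted p = 0.0508). The count of 10 was 4, 6 and 5 without the first library of inductant 1, of inductant 2 and of naive cells, and 16 without the second naive library. TOF1 lost its equal-weight call without the first library of inductant 1 or of naive cells, and its call in each induction as well in 7 of the 8 fits. MCD1, the cohesin kleisin, rose in both inductions (0.40 ± 0.08, adjusted p = 0.0118), with 70.9 and 71.1 CPM in inductant 2, 77.2 and 65.0 CPM in inductant 1 and 53.8 CPM in both naive libraries, and was not called in each induction in 6 of the 8 fits. Of the cyclins that set off the transition, CLN1, CLN2 and CLN3 had log2 fold changes of 0.05, 0.14 and -0.25 and were not called, and neither were SWI4 (0.35 ± 0.11, adjusted p = 0.075) and MBP1 (-0.06, adjusted p = 0.569). In asynchronous cultures, a larger share of cells in a phase and more RNA per cell in that phase cannot be told apart.

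**Figure D4:**
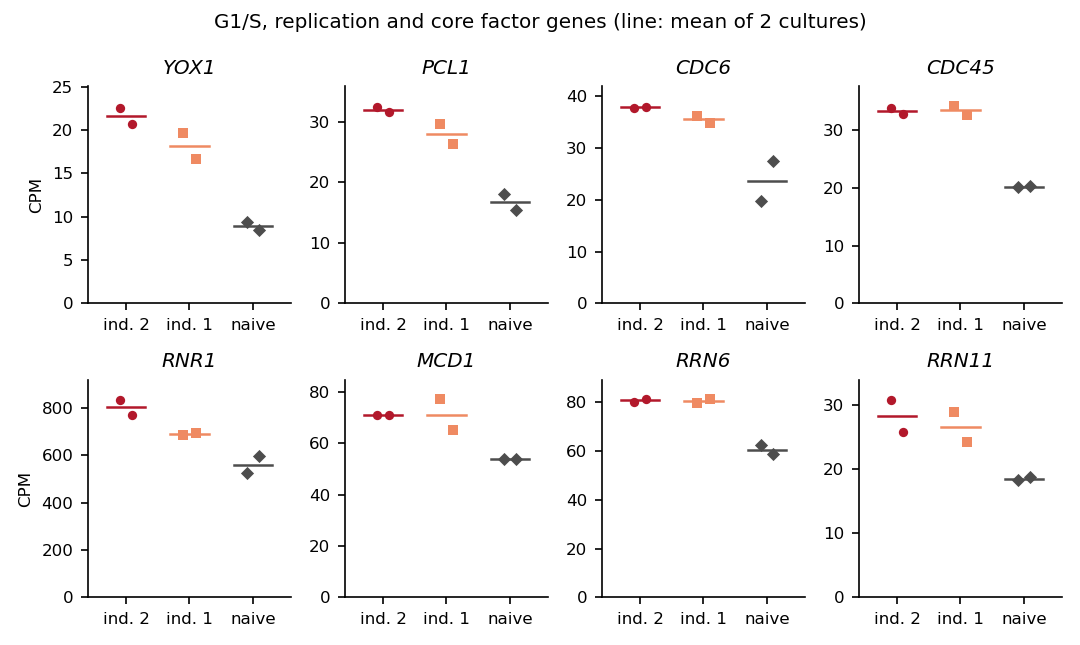
CPM of 8 genes of the G1/S transition, replication, cohesion and the RNA polymerase I core factor, 1 point per library and a line at the mean of 2 cultures, for inductant 2, inductant 1 and naive cells; axes start at 0. All inductant points lie above the naive ones in each panel, and in CDC6 the naive cultures lie apart at 19.7 and 27.5 CPM.

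The 3 subunits of the core factor, which places RNA polymerase I at the rDNA promoter, were higher. RRN11 had 30.7 and 25.8 CPM in inductant 2, 28.8 and 24.2 CPM in inductant 1 and 18.3 and 18.7 CPM in naive cells (0.56 ± 0.11, adjusted p = 0.00979). RRN6 had 80.1 and 81.4 CPM in inductant 2, 79.6 and 81.2 CPM in inductant 1 and 62.5 and 58.6 CPM in naive cells (0.41 ± 0.07, adjusted p = 0.00587). RRN11 and RRN6 were called in both inductions, which was lost in 6 and 4 of the 8 fits with 1 library left out. RRN7, the other subunit, was called in the equal-weight contrast (0.49 ± 0.11, adjusted p = 0.0167) but not in inductant 1 alone (adjusted p = 0.0804), and it lost its call without the first library of inductant 1, of inductant 2 or of naive cells. Of 27 polymerase I and III genes 4 were higher, and 2 were without any of those same 3 libraries. Of all genes tested 2.97% were higher. The large polymerase I subunits RPA190 and RPA135 both had a log2 fold change of 0.04. Both UTP18 of the small subunit processome and RSA4, an assembly factor of the large subunit, rose 1.44-fold in both inductions, which was lost in 4 and 5 of the 8 fits. Of 101 ribosome biogenesis genes 5 were higher, with 2.97% of all genes as the background, and the list's median was -0.008; the 5 became 9 without the first naive library and 2 or 3 without either library of inductant 1, the first of inductant 2 or either deletion library, and without the second naive library 4 were higher and 14 lower. Ribosomal protein genes were lower in inductant 1: 31 of 79 of the large subunit and 24 of 56 of the small subunit were called, with 3.19% of all genes called lower in inductant 1 as the background. In inductant 2 edgeR and DESeq2 called none of them, with 6 and 3 lower at an unadjusted p under 0.05. The lists' medians were -0.073 and -0.087 in inductant 2, against -0.304 and -0.29 in inductant 1. Between the inductions edgeR called none of these genes and DESeq2 called 17 and 8 higher in inductant 2, while 65 and 40 were higher at an unadjusted p under 0.05. Of all 6230 genes tested DESeq2 called 173 between the inductions, and 964 differed at an unadjusted p under 0.05, in either direction. None of the ribosomal protein genes counts among the genes changed in both inductions. In the equal-weight contrast 11 of each list were called lower. Those counts became 55 and 34 without the second naive library, 3 and 0 without the first, and at most 6 and 2 without either library of inductant 1, the second of inductant 2 or either deletion library.

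Of 10 daughter cell separation genes 5 were higher, against 2.97% of all genes. DSE4, a glucanase that daughters secrete to free themselves from the mother, rose in both inductions. DSE4 had 235 and 243 CPM in inductant 2, 211 and 198 CPM in inductant 1 and 144 and 172 CPM in naive cells (0.48 ± 0.08, adjusted p = 0.00394). The count of 5 became 8 without the second naive library and 1 or 2 without any other single library, and the call of DSE4 in each induction was lost in 7 of the 8 fits. GZF3, a GATA repressor of nitrogen genes, rose 1.43-fold in both inductions (adjusted p = 0.00503), and GAT1, the GATA activator, 1.40-fold (adjusted p = 0.01), a call lost without the first naive library. Called in each induction as well, GZF3 lost that status in 5 of the 8 fits, those without either library of inductant 1, the first of inductant 2 or either deletion library, and GAT1 in 7, all but the fit without the second naive library. GDH2, which breaks down glutamate, fell 1.51-fold, and the proline oxidase gene PUT1 was lower in the equal-weight contrast (-1.03 ± 0.13, adjusted p = 0.000603) but not in inductant 1 alone (adjusted p = 0.0521). The 4 nitrogen genes called higher became 9 without the second naive library, 1 without the first and 2 without the second library of inductant 1.

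Other transport and lipid genes changed too. TPO1, a polyamine exporter, had 122 and 123 CPM in inductant 2, 124 and 127 CPM in inductant 1 and 78.3 and 92.2 CPM in naive cells, 1.45-fold higher (adjusted p = 0.00231). OLE1, the fatty acid desaturase, had 915 and 792 CPM in inductant 2, 740.0 and 847 CPM in inductant 1 and 1597 and 1184 CPM in naive cells, 1.69-fold lower (adjusted p = 0.00838). Its naive libraries lay far apart, and its call in each induction as well was lost without any single inductant library.

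A repeated sequence had the largest rise of the 49. YML045W, a gag-pol frame of a Ty retrotransposon on chromosome XIII, had 3737 and 3503 CPM in inductant 2, 3379 and 4087 CPM in inductant 1 and 786 and 1193 CPM in naive cells, 3.71-fold higher (adjusted p = 0.0067). Ty copies are nearly identical, so reads may be assigned to a neighbour in the family. Summed over 91 gag and gag-pol frames, inductant 2 had 133000 CPM in both libraries, inductant 1 had 119000 and 147000 CPM and naive cells had 125000 and 110000 CPM, and these ranges overlap. The subtelomeric Y′ helicase frames YRF1-1, YRF1-5 and YRF1-8 carried the same values, 187 to 204 CPM in inductants, against 136 and 154 CPM in naive cells, and count as 1 signal although they are 3 of the 49 rises. Over 16 Y′ frames the sums were 1660 and 1760 CPM in inductant 2, 1760 and 1970 CPM in inductant 1 and 1270 and 1480 CPM in naive cells, without overlap.

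Of 13 pentose phosphate enzymes 4 were lower, with 5.6% of all genes as the background (2 without the first library of any of the 4 groups or without the second deletion library), among them SOL4 and NQM1 with log2 fold changes of -0.95 and -0.71, and none was called in both inductions. Of 31 genes of glycolysis, fermentation and gluconeogenesis 5 were lower and 1 higher (2 or 3 lower without the first library of inductant 1, either library of inductant 2 or either deletion library), and GPD1, which makes glycerol 3-phosphate, had -0.41. HTA1, a histone H2A gene, RPN4, the activator of proteasome genes, ATG7, an enzyme of autophagosome formation, and PRM5, a pheromone-regulated gene, fell in both inductions, with log2 fold changes of -0.48, -0.43, -0.48 and -0.93; no other member of their lists did. MET5, a subunit of sulfite reductase, rose in both (0.47 ± 0.1); its equal-weight call was lost without either library of inductant 1, and its call in each induction as well in 7 of the 8 fits with 1 library left out, all but that without the second naive library. The equal-weight call of ATG7 was lost without the second naive library, and its call in each induction as well in 7 of the 8 fits, all but that without the first naive library. Of 65 amino acid synthesis genes edgeR called 2 higher and DESeq2 15, and 19 were higher at an unadjusted p under 0.05; without the second naive library edgeR called 38 higher. Of all 6230 genes tested DESeq2 called 663 in the equal-weight contrast, in either direction, and edgeR called 2.97% higher. The share of all genes at an unadjusted p under 0.05 in this contrast is not given here. In the equal-weight contrast edgeR called no gene of the deadenylation and decapping list, the machinery with which Vts1 acts. DESeq2 called 1 higher there, and at an unadjusted p under 0.05 there were 2 higher and 6 lower of 24. In inductant 2 alone edgeR and DESeq2 each called 1 gene of this list higher. The absence of edgeR calls in the equal-weight contrast did not hold without the second naive library. Of 18 aminoacyl-tRNA synthetases and 28 peroxisomal genes edgeR and DESeq2 called none in the equal-weight contrast. At an unadjusted p under 0.05, 2 synthetases were higher and 1 lower, and 2 peroxisomal genes were higher and 5 lower. In inductant 2 alone edgeR called 1 peroxisomal gene lower and DESeq2 3. In inductant 1 alone DESeq2 called 1 synthetase lower. Lists of the tricarboxylic acid cycle, mitochondrial ribosome, G2/M regulators, purine synthesis, iron and copper uptake and ergosterol synthesis had 0 to 3 called members in either direction, none in both inductions. Of 23 G2/M regulators 3 were higher, against 2.97% of all genes. In inductant 2 alone 6 of them were higher, against 202 of all 6230 genes, and in inductant 1 alone 0. The G2/M calls moved when single libraries were left out. Without the second naive library 12 purine genes were lower and 1 higher, and 8 genes of the tricarboxylic acid cycle were higher and 1 lower.

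Of 19 genes of the protein kinase A pathway edgeR called 3 lower, with 5.6% of all genes as the background. RAS2, which activates adenylate cyclase, had 113 and 111 CPM in inductant 2, 109 and 113 CPM in inductant 1 and 146 and 145 CPM in naive cells, and fell in both inductions (-0.39 ± 0.06, adjusted p = 0.00159). TPK2, a catalytic subunit, was lower in the equal-weight contrast (-0.49 ± 0.08, adjusted p = 0.00466) but not in inductant 1 (adjusted p = 0.0648). TPK3, another catalytic subunit, and the phosphodiesterase PDE2 had log2 fold changes of 0.05 and 0.16 (adjusted p = 0.811 and 0.195). The regulatory subunit BCY1 was lower by 0.26 (adjusted p = 0.0352), a call that was lost in 6 of the 8 fits with 1 library left out, all but those without the second library of inductant 1 and the second naive library. DESeq2 called 5 of the 19 genes lower, against 663 of all 6230 genes called in either direction. At an unadjusted p under 0.05, 6 of the 19 were lower and 1 higher. None was called higher by edgeR or DESeq2, while without the second naive library edgeR called 5 higher and 3 lower. The list's median log2 fold change was 0.047.

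The difference between the inductions lay more in the falls than in the rises. The median log2 fold change of the falls was -1.04 in inductant 2 and -0.64 in inductant 1. Of the 109 falls, 94 lay further from naive cells in inductant 2, against 3291 of all 6230 genes tested. For the rises the medians were 0.45 and 0.44, and 22 of 49 lay further out in inductant 2. Set against each other, the inductions differed at 28 genes (0.449% of those tested), 10 of them among the falls. None of the 49 rises was called by edgeR or by DESeq2, and 4 differed at an unadjusted p under 0.05; of the 109 falls DESeq2 called 39, and 72 differed at an unadjusted p under 0.05. Of all 6230 genes tested DESeq2 called 173, and 964 differed at an unadjusted p under 0.05. The count of 28 was 1 without the first library of either induction, 5 and 35 without the second library of inductant 1 and of inductant 2, 318 and 312 without the first and the second naive library and 9 and 7 without the first and the second deletion library. FMP48, a mitochondrial protein kinase, differed most among the 10, with 11.6 and 13.2 CPM in inductant 2 and 25.5 and 27.7 CPM in inductant 1 (log2 fold change -1.10 ± 0.12, adjusted p = 0.00567); naive cells had 38.5 and 45.0 CPM.

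**Figure D5:**
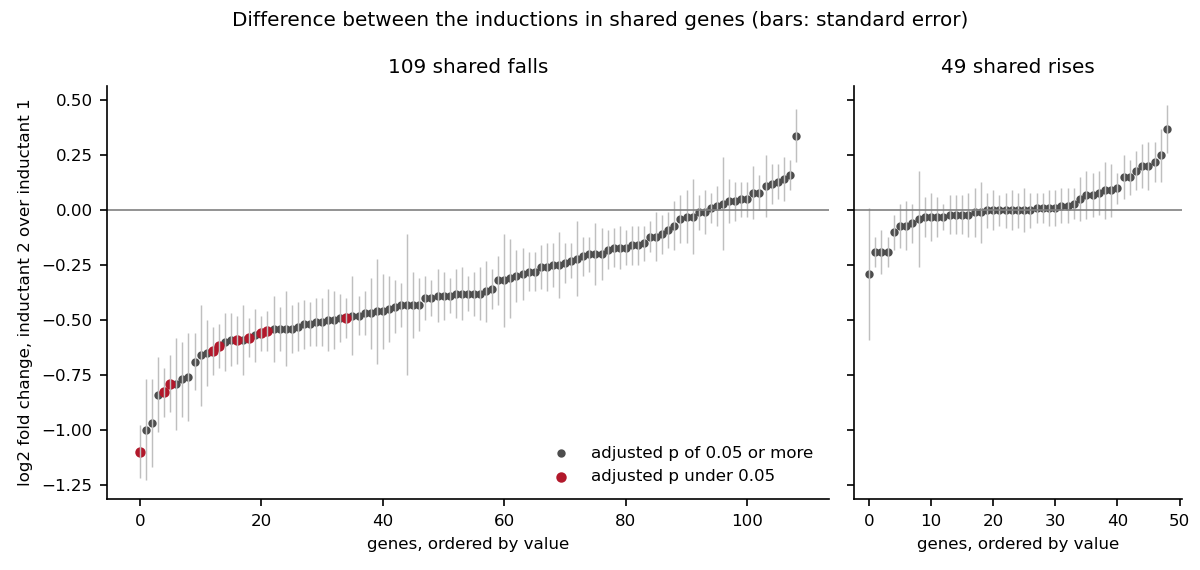
Log2 fold change of inductant 2 over inductant 1 with its standard error for each of the 109 falls and 49 rises, ordered by value; red points passed an adjusted p of 0.05. The falls lie mostly below 0, down to -1.10 for FMP48, and the rises lie around 0.

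Between inductants and deletion cells, 2344 (37.6%) of the genes tested differed, 1162 higher and 1182 lower in inductants. Of the 109 falls, 54 were lower in inductants than in deletion cells and 13 higher; of the 49 rises, 23 were higher and 7 lower. The falls and rises were chosen by the same inductant libraries, which tilts these counts in the chosen direction, so the counts are descriptive only. RGI1 had 15.4 and 21.9 CPM in the deletion, below both inductions, and EGO4 likewise had 6.72 and 6.65 CPM in inductant 2, 11.6 and 11.5 CPM in inductant 1, 23.2 and 22.6 CPM in naive cells and 4.58 and 4.96 CPM in the deletion. CWP1 stood at 56.5 and 60.7 CPM in the deletion and CTT1 at 106 and 89.5 CPM, above naive cells, so inductants and deletion cells lay on opposite sides of naive cells. ALD3, whose call in each induction was lost in 7 of the 8 fits with 1 library left out, had 14.7 and 15.7 CPM in inductant 2, 23.2 and 21.1 CPM in inductant 1, 27.3 and 33.2 CPM in naive cells and 91.2 and 89.4 CPM in the deletion. PCL1 had 98.7 and 85.0 CPM in the deletion, so the inductants lay between naive and deletion cells. GLG1, HAP4 and SLT2 were not called between inductants and deletion cells (log2 fold changes -0.03, 0.18 and 0.15).

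Genes that changed in both inductions lay on each of the 16 nuclear chromosomes, whose median log2 fold changes were -0.032 to 0.025. There were 4 pairs of annotated neighbours among them, named after their values were seen: the glycogen synthase genes GSY1 and GSY2 lay next to CMK1 and YLR257W, 387 and 924 bp apart, GIP2 next to PIC2, 2412 bp apart, and the rises INM1 and AAP1 454 bp apart, whose equal-weight calls were lost in 3 and 4 of the 8 fits with 1 library left out. Whether 4 pairs is more than scattered genes would give was not tested. The 18 mitochondrial frames had a median log2 fold change of 0.001 in inductant 2 and -0.278 in inductant 1, and none was called in both inductions. The rises had a median coding length of 2160 bases and the falls of 1503, against 1152 over all genes tested.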

How the data were processed

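Total RNA of 8 yeast cultures had been rRNA-depleted and sequenced, per the labels' protocols. The authors deposited 1 table per library with an estimated count and a TPM value for each open reading frame, per the file headers; kallisto and build R64 are named in the submitters' processing notes, while its version and any use of strand were not given in the sources used here. Kallisto divides reads among near-identical frames, so members of such families are given as sums. Estimated counts were rounded and analysed in R 4.3.3 by the quasi-likelihood method of edgeR 4.0.16 (robust, TMM factors, filterByExpr, Benjamini-Hochberg over 6230 genes; 483 of low counts were left out). All 8 libraries entered 1 fit with 4 residual degrees of freedom. The contrast was the mean of both inductants minus naive. TPM served levels per length and a limma 3.58.1 alternative on log2(TPM + 1); DESeq2 1.42.0, another scaling, other low-count filters, 6 libraries and leaving out each library were also tried. The fitting script was tested on simulated data.

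Depth was 18431474 to 27501966 counts per library; 3 counts, the most that a count of 0 allows, correspond to 0.1091 to 0.1628 CPM, for counting error only. Gene names and coding lengths came from the RefSeq annotation of R64, which matched 6026 of 6713 frames; 99.92% of the matched coding lengths were equal. The members, gene lists and alternatives were chosen with earlier results of these data known, so no list count is independent evidence. Genes were named by this rule: VTS1; the 20 falls and 12 rises of largest change called in both inductions with a mean of at least 10 CPM; up to 4 called members of each list by smallest adjusted p; the 5 genes of smallest adjusted p between the inductions; and 15 preset regulators. HXT1, HXT3, HXT6, PGM1, GLG2, UGP1, PIG2, GIP2, HSP12, HSP26, HSP31, NCE102, TSA1, SOD1, AHP1, CCW12, CIS3, CCW22, PNS1, CLN1, CLN2, CLN3, TOF1, RPA190, RPA135, the YRF1 frames and the neighbours PIC2, CMK1, INM1, AAP1 and YLR257W were named outside the rule, after their values were seen. One regulator named by the rule is not reported here.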

Additional observations from a re-analysis of the deposited data

Results flagged for a closer look

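Among the genes that fell in both inductions, 10 fell further in inductant 2 than in inductant 1, by edgeR's quasi-likelihood test of the difference itself at an adjusted p under 0.05; over all genes tested 28 differed. The log2 fold change of inductant 2 over inductant 1 was -1.10 for FMP48, -0.83 for XBP1, -0.79 for EGO4, -0.64 for ISF1, -0.62 for GAD1 (glutamate decarboxylase), -0.59 for GAC1, -0.58 for MSC1, -0.56 for HXT7, -0.55 for ALD4 and -0.49 for HSP30. GAD1 had 75.2 and 88.0 CPM in inductant 2, 124 and 126 CPM in inductant 1 and 160.0 and 189 CPM in naive cells, so inductant 1 lay between the other groups. VTS1 was itself higher in inductant 2 than in naive cells (0.64 ± 0.15, adjusted p = 0.0248) but not called in inductant 1 (0.23 ± 0.15, adjusted p = 0.394), nor between the inductions (0.41 ± 0.15, adjusted p = 0.234); its part in these differences was not tested. The groups have 2 libraries each, too few for a check of single outlying libraries.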

How the results depend on the processing

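No called gene among those named by the rule changed direction under any alternative, but counts of calls moved, and the cause was not tested. limma on log2(TPM + 1) gave 248 genes for both inductants, 247 for inductant 2, 16 for inductant 1, 12 called in both inductions and 2 between the inductions; with a pseudocount of 0.1 these were 239, 245, 5, 5 and 3. DESeq2 gave 454 for inductant 1 and 173 between the inductions. With only the 6 inductant and naive libraries, 340 were called for both inductants, 109 for inductant 1, 86 in both inductions and 6 between them. Calling a gene in both inductions by the equal-weight test and non-overlapping libraries gave 504, and asking for 1.5-fold in each induction as well gave 65. The replicate block gave 422 for inductant 1 and 140 between the inductions, and 226 in both inductions; same-numbered libraries correlated at -0.113 to 0.112, so the numbers do not pair them. Leaving out each library in turn gave 277 to 1221 for both inductants, 24 to 1048 for inductant 1, 161 to 1023 for inductant 2, 21 to 604 in both inductions and 1 to 318 between the inductions, where a group left with 1 library is taken to vary like the others. Of the 158 genes, 47 of 49 rises and 106 of 109 falls were again called in each induction by DESeq2. With 2 cultures a group, their spread, which exceeded counting noise in each pair, limits these values more than depth does.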
